A study of Mus musculus with 14 samples.

Results

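The 6 enzymes of the urea cycle and its activator step (Nags, Cps1, Otc, Ass1, Asl and Arg1), glutamine synthetase (Glul) and liver glutaminase (Gls2) were followed in the liver of Apoe-deficient mice. Members were chosen by gene symbol for their place in these pathways, without use of a measured value. Earlier results of these data were known at that time. All 8 members were found among the 17552 genes counted. RNA came from male Apoe-deficient mice on the C57BL/6 background (C57BL/6J by the methods of the study), with 8 weeks given as their age. In the methods of the study a like age is given for the animals used, which were then fed the diets. It thus reads as the age before feeding, not at sampling. The control group received a Western diet, and the erythrodiol group received the same diet with erythrodiol, a triterpenic alcohol of the olive. Its dose was 10 mg/kg of mouse, not of diet, estimated in the methods of the study from an assumed daily intake. Each group was sequenced as 7 libraries, 14 in all, and each library was made from RNA pooled from a few animals. Both groups lack apolipoprotein E, so every value below belongs to mice with high plasma cholesterol, and no wild-type group was analysed here. Apoe itself was still counted 9403 times in control and 8293 times in erythrodiol. The labels state 8 weeks of feeding, whereas the methods of the study state a longer time.

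For each gene, 1 expected count per group was deposited, which is the sum over the 7 libraries. A gene therefore had no replicate value and no test between the diets could be made. The 95% intervals below are exact Clopper-Pearson intervals and cover counting error only, not the spread between mice, pools or libraries. Counts added up to 122889032 for the control diet and 124686047 for the erythrodiol diet. Single libraries contributed from 9.12% to 17.3% of the read pairs mapped to genes for the control diet and from 13.9% to 14.6% for the erythrodiol diet. The smallest share was that of control replicate 3, of which 64.3% of reads mapped to genes, against 72.96% to 81.4% in the other 13 libraries. Levels are given as counts of a gene per 1000000 counts of its group (CPM), and as CPM per kilobase of gene length where genes are compared with each other. The ratio is the log2 of the erythrodiol level over the control level.

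The urea cycle turns ammonia and the nitrogen of aspartate into urea. Nags makes N-acetylglutamate, which Cps1 needs to form carbamoyl phosphate in mitochondria. Otc joins carbamoyl phosphate to ornithine, Ass1 and Asl build and split argininosuccinate in the cytosol, and Arg1 releases urea and restores ornithine. In the liver lobule these enzymes are found mainly in periportal hepatocytes, together with Gls2, which releases ammonia from glutamine. Glul takes up the ammonia that is left in the last hepatocytes around the central vein and makes glutamine of it, under the control of beta-catenin signalling.

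Among these genes the largest ratios in either direction belonged to neighbours in the cycle. Ass1 had 144895 counts in control and 201287 in erythrodiol, and Otc had 61854 and 50646. The level of Ass1 was thus 1179 CPM in control and 1614 CPM in erythrodiol, 1.37-fold (log2 ratio 0.45, 95% interval 0.44 to 0.46). The level of Otc was 503 CPM in control and 406 CPM in erythrodiol, 0.807-fold (log2 ratio -0.31, -0.33 to -0.29). Cps1, the entry enzyme of the cycle, had 222129 and 288867 counts, which is 1808 and 2317 CPM and 1.28-fold (log2 0.36, 0.35 to 0.37). With 1 value a group, genes were counted as past the limit where they were at least 25% higher in the erythrodiol sum or at least 20% lower, which is the same distance from equality on the log2 scale. Ass1 and Cps1, 2 of 8 members, were past it upwards and 0 of 8 downwards. Of the 13291 genes with 100 counts or more over both groups, 24.4% were past it upwards and 8.89% downwards, and of the 3294 genes with 10000 counts or more 27.1% and 8.56%. The share of the members was thus near that of the table in the upward direction. No member (0 of 8) reached a 2-fold ratio, which 0.218% of genes passed upwards and 0.549% downwards.

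The promoters of Ass1 and Otc, the ends of this range, and of Glul, the pericentral member, are shown for their difference in base composition. They are RefSeq sequences of GRCm38.p6, read on the plus strand, and end at the base before the earliest start annotated in RefSeq or GENCODE M21, which for Ass1 is a GENCODE start upstream of the RefSeq start given below. Sequences of 4 of the 8 members were in the promoter table (Nags, Otc, Ass1 and Glul). Capitals mark matches to CCAAT (the CCAAT box), TATAA (the TATA box), GGGCGG (the GC box), CACGTG (an E-box), TCAAAG (the core read by TCF factors) or TGACG (the core read by CREB factors), each searched on both strands. The Ass1 sequence is chr2:31470020-31470206, the Otc sequence chrX:10252055-10252229 and the Glul sequence chr1:153899679-153899928.
Ass1: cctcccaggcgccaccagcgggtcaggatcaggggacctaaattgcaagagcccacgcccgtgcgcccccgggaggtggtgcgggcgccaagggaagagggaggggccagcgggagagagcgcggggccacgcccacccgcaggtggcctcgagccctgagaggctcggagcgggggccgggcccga
Otc: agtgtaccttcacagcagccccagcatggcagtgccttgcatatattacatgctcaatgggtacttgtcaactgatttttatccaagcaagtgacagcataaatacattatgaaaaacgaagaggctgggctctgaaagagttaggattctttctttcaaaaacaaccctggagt
Glul: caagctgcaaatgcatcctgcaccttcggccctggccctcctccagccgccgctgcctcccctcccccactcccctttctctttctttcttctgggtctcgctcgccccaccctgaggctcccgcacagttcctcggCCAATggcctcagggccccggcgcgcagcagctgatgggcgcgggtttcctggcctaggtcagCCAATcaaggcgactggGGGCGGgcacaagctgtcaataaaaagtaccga
Of the bases shown, 75.4% were G or C for Ass1, 64.8% for Glul and 41.7% for Otc. The median over 32851 RefSeq promoters was 51.3% in a window of 187 bases, 52.4% in one of 250 bases and 51.4% in one of 175 bases. None of the 6 motifs was present in the 187 bases of Ass1 or the 175 bases of Otc. The 250 bases of Glul held CCAAT at positions -113 and -50 and GGGCGG at -33, counted from the start of the gene. In windows of that length 33.8% of promoters held CCAAT and 32.7% held GGGCGG. The 250 bases of Nags before its start (chr11:102145263-102145512, plus strand) held TCAAAG at -203, a motif in 13.8% of promoters, and GGGCGG at -132 and -41. These matches describe the letters of the reference only.

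Genes of different length did not have the same ratio between these groups. The median log2 ratio was -0.27 for the 862 genes of up to 1000 bases, 0.04 for 3040 genes of 1000 to 2000 bases, 0.17 for 5571 genes of 2000 to 4000 bases and 0.27 for 3309 genes of 4000 to 8000 bases. Over all 13291 genes the median was 0.16, and 71.2% of genes lay above 0. Each member was therefore also set against the 500 genes nearest to it in length. Cps1, with 5536 bases the longest member, had a log2 ratio of 0.09 (0.08 to 0.09) relative to genes of like length, and 169 of the 500 had a higher ratio. Ass1, with 1631 bases, kept a relative log2 ratio of 0.39 (0.38 to 0.40), and 20 of 500 were higher. Otc, with 2345 bases, had a relative log2 ratio of -0.45 (-0.47 to -0.43), and 466 of 500 were higher. On this scale 1 of 8 members was past the limit upwards (Ass1) and 1 of 8 downwards (Otc), beside 5.91% and 13.5% of all genes, and 0 of 8 were past 2-fold, beside 0.15% and 0.466%. Scaled by the median of all genes instead, which lowers every log2 ratio by 0.16, 0 of 8 were past the limit upwards and 1 of 8, Otc, downwards.

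**Figure D1:**
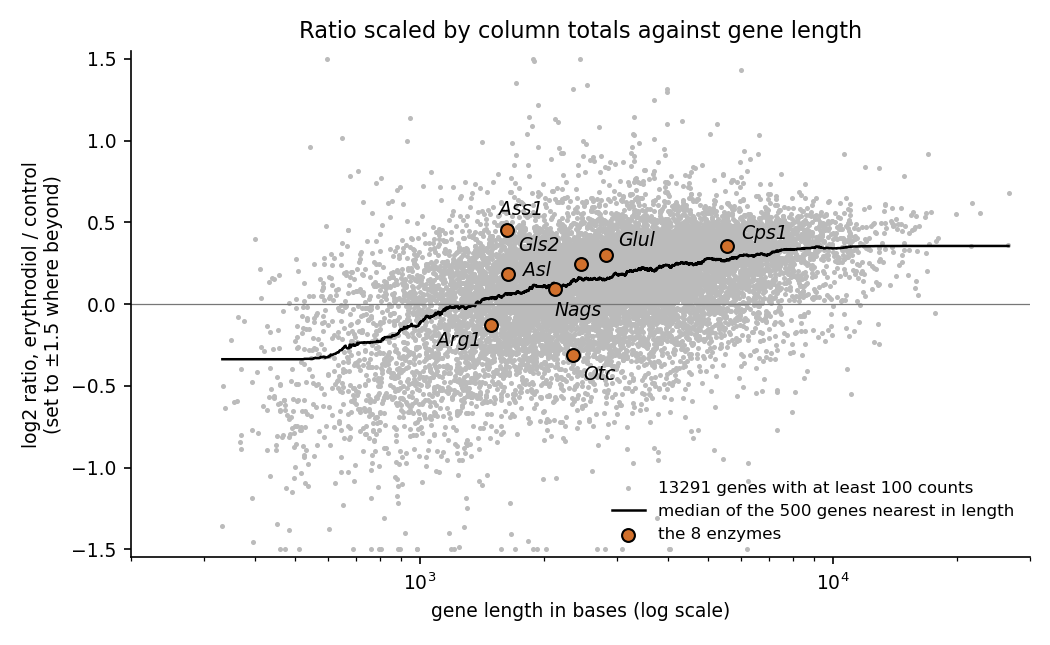
The y axis gives the log2 ratio after scaling by column totals and the log x axis gene length in bases. Grey points are the 13291 genes with 100 counts or more, drawn at the edge where their ratio is beyond the axis, the black line is the median of the 500 genes nearest in length, and orange points are the 8 enzymes. The line climbs with length, Ass1 lies above it and Otc and Arg1 lie below it.

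The first enzymes of the pathway differed in level by more than an order of magnitude. Nags (identifier 217214, chr11:102145513-102149528 of GRCm38, plus strand) had 5261 counts in control and 5695 in erythrodiol. This is 42.8 and 45.7 CPM, a log2 ratio of 0.09 (0.04 to 0.15), which became -0.03 (-0.09 to 0.02) relative to genes of like length. Nags was the least abundant member, at 20.2 CPM per kilobase in control and 21.5 in erythrodiol. Its gene span, introns included, shares 698 bases with that of an antisense gene, Gm11586. Whether exons of both lie there was not examined. The sources used here do not state whether the counting used strand. Cps1 (227231, chr1:67122426-67231267, plus strand) stood at 327 CPM per kilobase in control and 418 in erythrodiol. The log2 ratio of Nags was lower than that of Cps1 (difference -0.26, -0.32 to -0.21), and the difference was -0.12 on the scale of like length.

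Otc (18416, chrX:10252230-10321024, plus strand) and Cps1 act one after the other in the mitochondrion and their ratios had opposite signs. Otc had 0.278 counts per count of Cps1 in control and 0.175 in erythrodiol. The difference between their log2 ratios was -0.67 (-0.69 to -0.65), a value that no scaling of the whole table can move, and it was -0.54 after each gene was set against genes of like length. Between Otc and Ass1 (11898, chr2:31470270-31520670, plus strand), where citrulline leaves the mitochondrion for the cytosol, the difference was larger and of the other sign. Ass1 had 2.34 counts per count of Otc in control and 3.97 in erythrodiol, which is 1.70-fold more (log2 difference 0.76, 0.74 to 0.78). The difference was 0.85 when each gene was set against genes of its own length.

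The cytosolic enzymes after Ass1 had lower ratios than Ass1. Asl (109900, chr5:130011258-130024381, minus strand), which splits argininosuccinate into arginine and fumarate, had 22047 and 25442 counts, 179 and 204 CPM, and a log2 ratio of 0.19 (0.16 to 0.21). Relative to like length it was at 0.12, with 160 of 500 genes higher. Its difference from Ass1 was -0.27 (-0.30 to -0.24). Arg1 (11846, chr10:24915207-24927470, minus strand), the arginase that ends the cycle, had 86047 and 80009 counts, 700.2 and 642 CPM, and a log2 ratio of -0.13 (-0.14 to -0.11). Scaled by column totals, Arg1 and Otc were thus the members with a lower level in the erythrodiol sum, and both were within the limit. Relative to genes of like length Nags was below 0 as well (-0.03). The log2 ratio of Arg1 relative to genes of like length was -0.17, and 349 of 500 genes were higher. The number of Arg1 counts per count of Asl was 3.90 in control and 3.14 in erythrodiol (log2 difference -0.31, -0.34 to -0.28).

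Both glutamine enzymes were higher in the erythrodiol sum and within the limit of 25%. Glul (14645, chr1:153899929-153909723, plus strand) had 150060 and 187756 counts, 1221 and 1506 CPM, and a log2 ratio of 0.30 (0.29 to 0.31). Gls2 (216456, chr10:128194635-128210004, plus strand) had 18867 and 22697 counts, 154 and 182 CPM, and a log2 ratio of 0.25 (0.22 to 0.27). Their log2 ratios differed by 0.06 (0.03 to 0.09), so the enzyme that makes glutamine and the enzyme that splits it stood in nearly the same proportion in both groups. Set against genes of like length, the log2 ratio was 0.15 for Glul, with 117 of 500 genes higher, and 0.09 for Gls2, with 159 of 500 higher. Glul overlaps Teddm2 on the other strand along 285 bases and the microRNA gene Mir8114 along 93, and Gls2 overlaps Spryd4 on the other strand along 97.

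**Figure D2:**
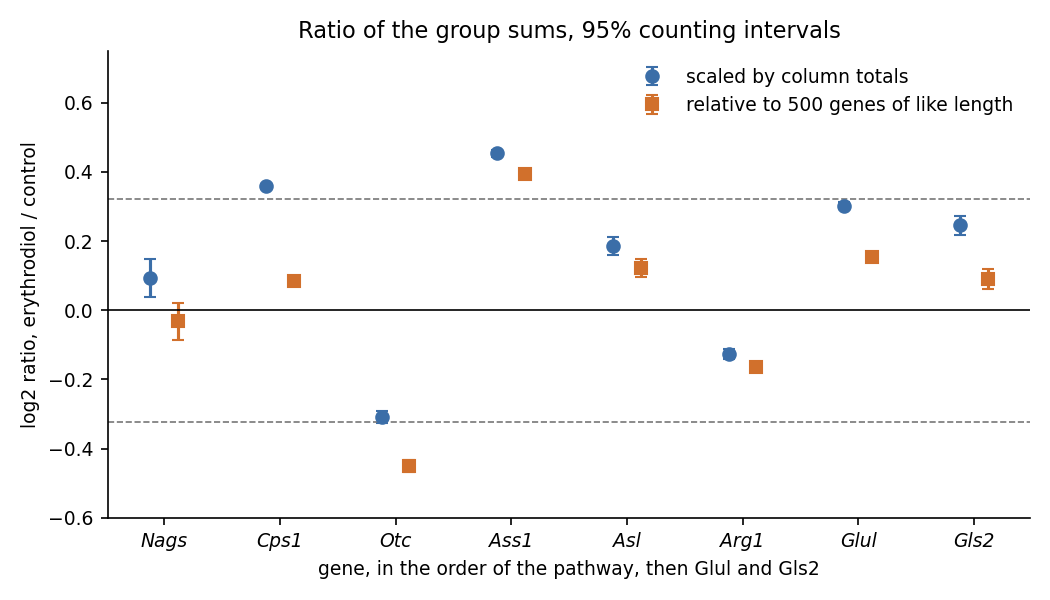
Log2 ratio, erythrodiol over control, for each of the 8 enzymes, in pathway order and then Glul and Gls2. Blue circles are scaled by column totals and orange squares are relative to 500 genes of like length, bars are 95% counting intervals, and dashed lines mark 25% higher and 20% lower. Ass1 lies above the upper line and Otc is the lowest gene on both scales, while Cps1 is above the upper line only when scaled by column totals.

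Per length, Ass1 was the most abundant member in both groups, at 723 CPM per kilobase in control and 989.8 in erythrodiol. In the control group it was followed by Arg1 (470.2), Glul (433), Cps1 (327), Otc (215), Asl (109.5), Gls2 (62.4) and Nags (20.2). In the erythrodiol group Glul (534) stood before Arg1 (431), and the rest kept their order, with Cps1 at 418, Otc at 173, Asl at 125, Gls2 at 74.0 and Nags at 21.5. The exchange of Arg1 and Glul was a log2 difference of -0.43 (-0.45 to -0.41). The counting intervals of neighbours in these orders did not overlap, but without a value for each library it cannot be said whether neighbours differed beyond the spread between libraries. All 8 members had whole-number counts in both groups, as 79.5% of the genes with counts above 0 did. No read of a member was thus split with a near-identical gene in a way the sums show.

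**Figure D3:**
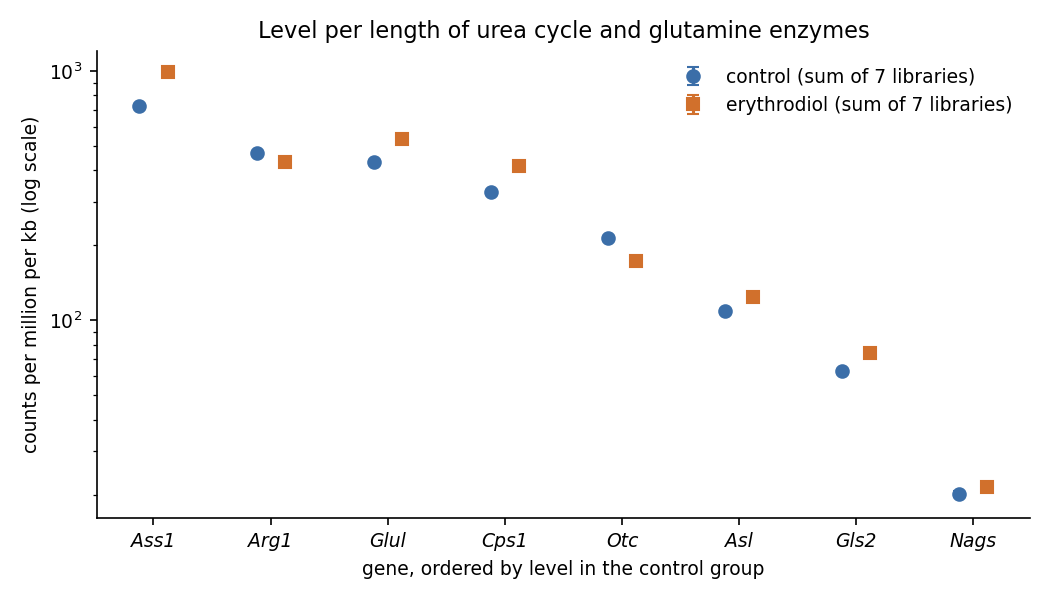
Level of each enzyme in CPM per kilobase on a log y axis, ordered by the control level. Blue circles are the control sum and orange squares the erythrodiol sum of 7 libraries, and the 95% counting intervals are mostly smaller than the symbols. Ass1 is highest and Nags lowest in both groups, and Glul and Arg1 exchange places.

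Sister genes used mainly outside the hepatocyte were examined in 2 pairs. Arg2, the mitochondrial arginase, was counted 162 times in control and 132 times in erythrodiol, and stood per length at 0.198% and 0.173% of Arg1. Car5b, a mitochondrial carbonic anhydrase, stood at 2.49% and 2.83% of Car5a, the form that feeds bicarbonate to Cps1. The liver forms thus made up nearly all of each pair in both groups.

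The contrast of the periportal cycle with pericentral Glul depended on which enzyme was taken. The median log2 ratio of the 6 cycle enzymes was 0.14 and that of Glul exceeded it by 0.16, or by 0.13 relative to genes of like length. The ratio of Glul was 0.61 above that of Otc (0.59 to 0.63), 0.06 below that of Cps1 (-0.07 to -0.04) and 0.15 below that of Ass1. On the scale of like length it was 0.60 above Otc, 0.07 above Cps1, so that this direction turned, and below Ass1 by 0.24 (difference -0.24). On both scales the ratio of Glul thus lay between those of Otc and Ass1. Marker genes of the same zones that are no members gave no clearer split. Of 18 periportal markers 7 were past the limit upwards and 0 downwards, with a median of 0.18, and of 20 pericentral markers 5 were past it upwards and 3 downwards, with a median of 0.24. The medians relative to genes of like length were 0.04 and 0.03. Past the limit upwards and downwards were 4 and 1 periportal markers and 2 and 2 pericentral ones. Of all genes 24.4% were past it upwards and 8.89% downwards by column totals, and 5.91% and 13.5% relative to like length. Bulk RNA gives one value for the whole lobule, and fewer cells of a zone or type cannot be told apart from less RNA per cell.

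Within both marker lists single genes lay far from the median. Among periportal markers Mfsd2a, a lipid transporter, had 1941 and 4254 counts (log2 1.11), and Pck1, the entry enzyme of gluconeogenesis, had 109728 and 174872 (0.65). At the other end were Sdsl, a serine dehydratase homologue, with 635 and 529 counts (-0.28), and Ctsc, a lysosomal protease, with 18159 and 16279 (-0.18). Among pericentral markers Cyp7a1, the rate-limiting enzyme of bile acid synthesis, had 11875 and 28636 counts (2.38-fold) and Lgr5, a receptor that strengthens Wnt signalling, had a log2 ratio of 0.49. Rgn, a calcium-binding lactonase, had 154399 and 105439 counts (-0.57) and Lect2, a secreted hepatocyte protein, 17024 and 13192 (-0.39). These genes are the ends of each list, so their range was not weighed against the distance between the zones.

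**Figure D4:**
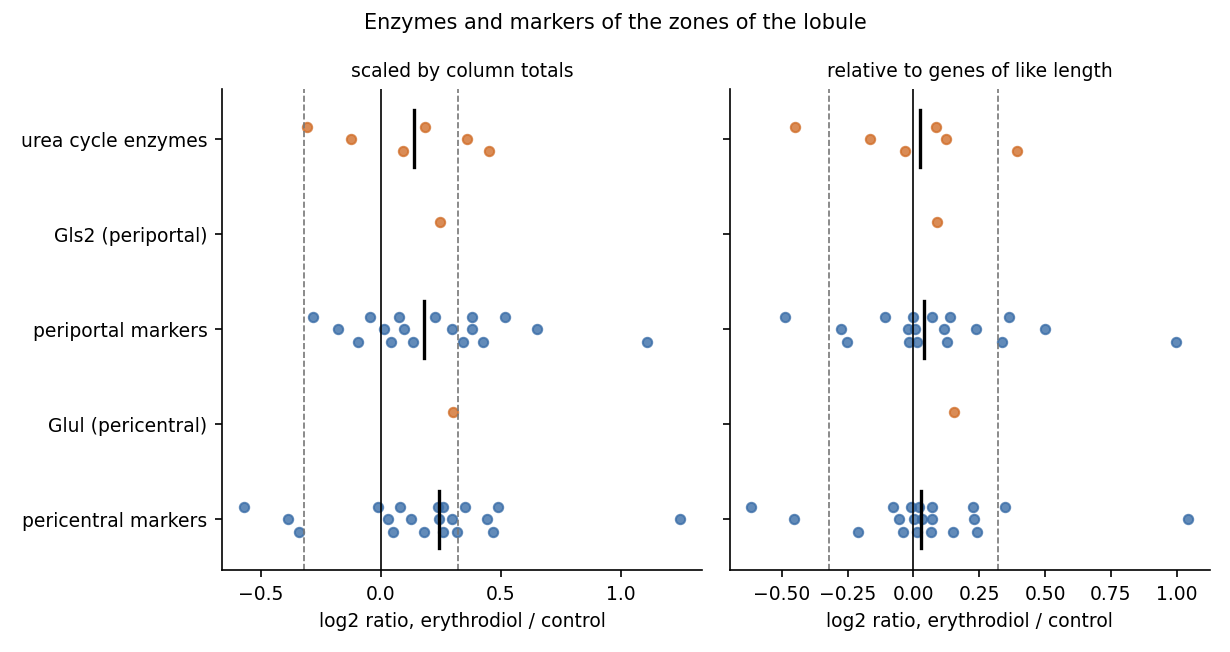
Log2 ratio, erythrodiol over control, on the x axis for the urea cycle enzymes, Gls2 and Glul (orange) and for periportal and pericentral marker genes (blue), 1 point per gene. The left panel is scaled by column totals and the right panel is relative to genes of like length, black bars are medians and dashed lines mark 25% higher and 20% lower. Points of both zones overlap over most of their range, and the medians of the marker lists are 0.18 and 0.24 on the left and 0.04 and 0.03 on the right.

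Mitochondrial carriers bring the cycle its substrates across the inner membrane. Of 7 carrier genes 5 had 100 counts or more. Past the limit upwards were 2 of these and downwards 0, beside 24.4% and 8.89% of all genes. The median log2 ratio of the 5 was 0.17, close to the 0.16 of all genes. Slc25a15, the ornithine and citrulline exchanger that stands between Otc and Ass1, had 19924 and 22646 counts (log2 0.16, and -0.06 relative to genes of like length). Slc25a13, which exports the aspartate that Ass1 uses, had 21628 and 28541 counts (0.38, and 0.20 relative to like length). Slc25a22, a glutamate carrier, had 21041 and 28213 (0.40, and 0.25), and Slc25a10, the dicarboxylate carrier, had a log2 ratio of 0.17. Slc25a2 with 17 and 23 counts and Slc25a18 with 12 and 19 were too rare for a ratio. None of the carriers (0 of 5) was past the limit relative to genes of like length, beside 5.91% of all genes upwards and 13.5% downwards.

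Enzymes that supply ammonia, glutamate, aspartate or bicarbonate had a median of 0.21 over 17 genes, 6 of them past the limit upwards and 1 downwards. The shares of all genes past it were 24.4% and 8.89%. Asns, asparagine synthetase, had 1134 and 2243 counts (log2 0.96), the highest ratio of the list on both scales, at 0.85 relative to genes of like length. Car5b had 357 and 525 counts (0.54). The lowest was Oat, ornithine aminotransferase, a pericentral enzyme that uses ornithine as Otc does, with 77187 and 61922 counts (-0.34, and -0.45 relative to like length), followed by Arg2 (-0.32). Glud1, glutamate dehydrogenase, had a log2 ratio of 0.21 and Got2, the mitochondrial aspartate aminotransferase, of 0.36, and relative to like length they were at 0.03 and 0.22. Against genes of like length, 2 of 17 were past the limit upwards and 3 downwards, beside 5.91% and 13.5% of all genes. The median was 0.03.

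Of 19 listed plasma membrane transporters 18 were in the table and 17 had 100 counts or more. Of these 17, 6 were past the limit upwards and 1 downwards (median 0.24), beside 24.4% and 8.89% of all genes. Slc7a5, a carrier of large neutral amino acids, had 381 and 683 counts (log2 0.82), and Slc7a2, which carries arginine and ornithine into hepatocytes, 45953 and 63447 (0.44). Slc14a1, a urea transporter, had 70 and 43 counts (-0.72, or 0.605-fold with an interval of 0.404 to 0.898) and Slc38a1, a glutamine carrier, 610 and 589 (-0.07). Rhbg, the ammonium transporter of the hepatocytes that hold Glul, had 1023 and 1031 counts (log2 -0.01, and -0.08 relative to like length), whereas Glul was at 0.30. Slc38a3, the main glutamine carrier of hepatocytes, had 128774 and 167320 counts (0.36). On the scale of like length 1 of 17 was past the limit upwards and 2 downwards, beside 5.91% and 13.5% of all genes. The median was 0.03.

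Transcription factors and receptors that act on urea cycle genes had a median of 0.23 over 15 genes. Of these 4 were past the limit upwards and 0 downwards, beside 24.4% and 8.89% of all genes. The highest were Foxa1, a forkhead factor, with 2161 and 3120 counts (log2 0.51), and Ppargc1a, a coactivator of the fasting response, with 1064 and 1510 (0.48). The lowest were Foxa3, with 4729 and 4433 counts, and Cebpa, a factor that drives Cps1 and other genes of the cycle, with 55268 and 51819, both at -0.11. Genes of the beta-catenin pathway, which sets Glul, had a median of 0.29 over 14 genes, with 5 past the limit upwards and 0 downwards. Wnt9b (99 and 148 counts, 0.56) and Apc (4376 and 6266 counts, 0.50) were the highest, while Ctnnb1, beta-catenin itself, was at 0.04 and its target Sp5 had 348 and 354 counts. In neither list was a gene past the limit relative to genes of like length, beside 5.91% of all genes upwards and 13.5% downwards. The medians on that scale were 0.07 and 0.05.

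**Figure D5:**
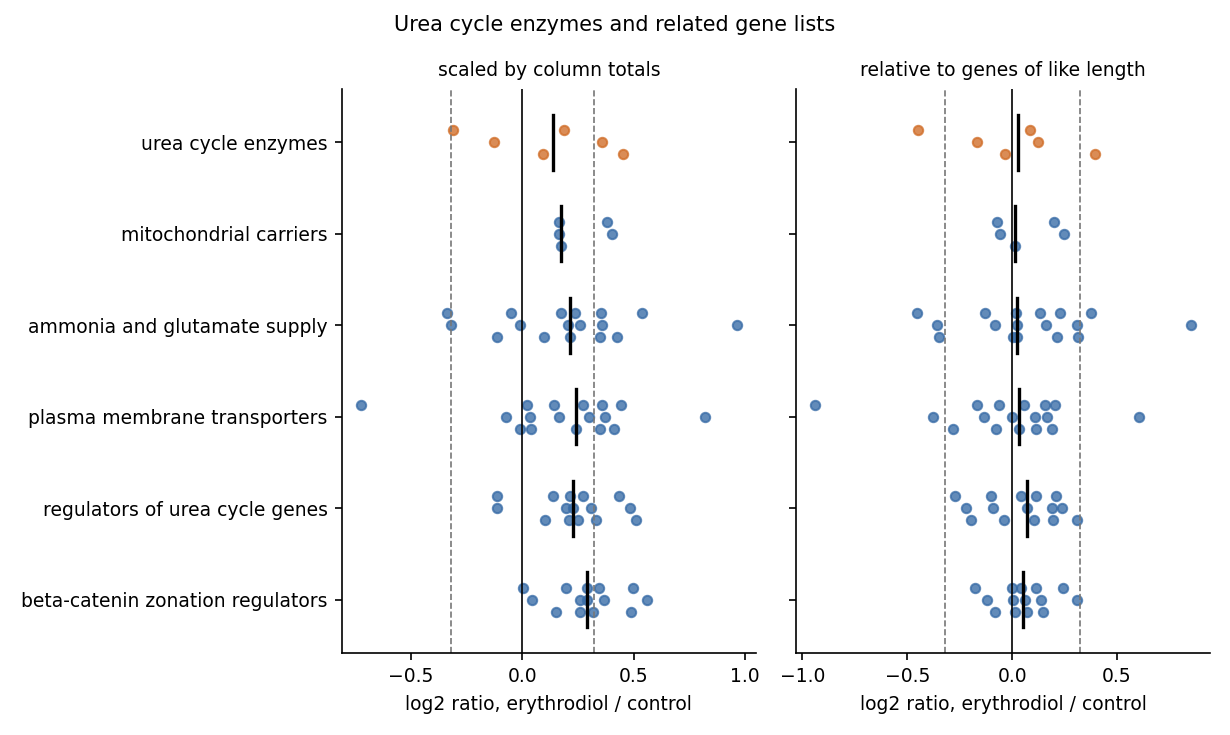
Log2 ratio, erythrodiol over control, on the x axis for the urea cycle enzymes (orange) and 5 related gene lists (blue), 1 point per gene with 100 counts or more. The left panel is scaled by column totals and the right panel is relative to genes of like length, black bars are medians and dashed lines mark 25% higher and 20% lower. The medians lie between 0.14 and 0.29 on the left and between 0.01 and 0.07 on the right.

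Markers of other cell types were not equally represented in the groups. Hepatocyte markers, 5 of 6 in the table, summed to 104737 CPM in control and 103430 CPM in erythrodiol, with 0 of 5 past the limit. Of 7 Kupffer cell and macrophage markers 6 were at least 20% lower in the erythrodiol sum, and the list summed to 1038 and 662 CPM. Of 5 bile duct markers 3 were lower, with sums of 116 and 79.1 CPM, and of 5 erythroid markers 3 were lower, with sums of 1264 and 929 CPM. Of 6 stellate cell markers 0 were past the limit, with sums of 276 and 281 CPM, and of 6 endothelial markers 1 was higher and 0 lower, with sums of 178 and 183 CPM. Of 5 lymphocyte markers 2 were lower, with sums of 5.53 and 5.12 CPM. Of 5 neutrophil and 5 acinar pancreas markers 2 each had 100 counts or more and were lower. The full lists summed to 9.80 and 4.57 CPM and to 14.02 and 9.63 CPM. The acinar list was split, since among its rarer genes Ctrb1 (8 and 42 counts) and Cpa1 (2 and 15) were higher and Prss2 (15 and 8) was lower. The rarer neutrophil genes Ngp (36 and 19 counts), Retnlg (42 and 36) and Mpo (13 and 3) were lower. Striated muscle markers summed to 0.293 and 0.080 CPM, with 1 of 5 at 0 in control and 2 of 5 in erythrodiol. Arg1, which macrophages can also express, stood at 700.2 CPM beside the 1038 CPM of all 7 macrophage markers in control. Relative to genes of like length, 6 of 7 macrophage, 5 of 5 bile duct, 2 of 5 erythroid and 2 of 6 stellate cell markers were lower by the same limit, 0 of 6 endothelial and 0 of 5 hepatocyte markers were past it in either direction, and 2 of 5 lymphocyte markers were lower. The 2 neutrophil and 2 acinar markers with 100 counts or more were lower on this scale too. Of all genes 8.89% were lower by this limit and 24.4% higher by column totals, and 13.5% and 5.91% on the scale of like length. The part of these cell types in the ratios of the 8 enzymes was not tested.

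Transcript structures were assembled by the authors over all libraries and carry no value for a group. Of 13439 new coding transcripts 3 belonged to members, 2 to Asl and 1 to Arg1. Both Asl transcripts had 16 exons, of which 12 match annotated exons of GENCODE M21 exactly. In both, an exon of 977 bases (chr5:130013963-130014939) holds 3 annotated exon intervals and one of 533 bases (chr5:130016296-130016828) holds 2. Intervals were counted by start and end over all annotated transcripts, so variants of the same exon count separately. They differ in an exon near the 5′ end of the gene, which starts at 130024294 in one and at 130024208 in the other. The Arg1 transcript had 9 exons, 6 of them annotated, and one of the others (chr10:24927572-24927771, 200 bases) lies upstream of the annotated start. None of the 16 filtered splicing events lay in a member (0 of 16).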

How the data were processed

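Liver RNA libraries of both diets were sequenced in paired-end mode by the authors, who mapped clean reads to the merged reference and newly assembled transcripts with Bowtie2 and counted them with RSEM. The authors deposited 1 expected count per gene and group, summed over its 7 libraries without normalization, and the gene length used. Numbers of clean reads (counts) and mapping rates (percent) were deposited for each library. Versions are not given in the sources used here. The deposited log2 ratio, p-value and q-value of the authors' own comparison were not used. Coordinates are those of GRCm38.

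The log2 ratio was computed from counts divided by column totals, with exact Clopper-Pearson 95% intervals for 1 gene and the normal approximation to Poisson error for differences between genes. It was also taken relative to the median of the 500 genes nearest in length, over the 13291 genes with 100 counts or more. The design had allowed for gene counts per library. Group sums were found, so no test was made, genes at least 25% higher or 20% lower, or past 2-fold, were counted. Alternatives were scaling by the median log2 ratio, by a trimmed mean, without the 100 genes of highest count or by Ppib and Tbp, 20 length classes, and a pseudocount of 1. Those for Nags, Cps1, Otc, Ass1, Asl and Arg1, for Otc minus Cps1, for Ass1 minus Otc and for counts past a limit were added after seeing the data. The computation was tested on simulated data.

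The members and gene lists were chosen with earlier results of these data known. Genes named are the 8 members, Slc25a15, Slc25a13, Rhbg, Apoe, Ppib and Tbp, and the 2 highest and 2 lowest of each other list. Other genes named, such as Glud1, Got2, Car5a, Slc38a3, Ctrb1 and Cpa1, were chosen after their values were seen. Scripts ran under Python 3.11.15 with scipy 1.17.1, pandas 2.3.3, numpy 2.4.6 and matplotlib 3.10.9. Motifs were searched in RefSeq promoter sequences of GRCm38.p6.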

Additional observations from a re-analysis of the deposited data

Results flagged for a closer look

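Control replicate 3 lay far from the other 6 control libraries by its mapping rates. Of its clean reads 64.3% mapped to genes, with the nearest control library at 74.4%, and 76.7% mapped to the genome, with the nearest at 91.98%. The gap to the nearest library was 0.588 and 0.852 of the range of the group. Chance alone would single out about 1 in 20 groups by this measure, and 6 combinations of library measure and group were examined. This library gave 9.12% of all read pairs mapped to genes in the control group, its share of the count of any enzyme is not known, and since gene counts exist as group sums, no enzyme is given without it.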

How the results depend on the processing

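The scaling set the level of every ratio. Over the 6 cycle enzymes the median log2 ratio of 0.14 became -0.022 when scaled by the median of all genes, -0.019 by a trimmed mean, 0.032 without the 100 most counted genes, 0.28 by Ppib and Tbp, 0.026 relative to 500 genes of like length and 0.028 in 20 length classes. It was 0.11 as a mean and 0.24 for summed counts. In the same order of scalings Glul was 0.14, 0.14, 0.19, 0.44, 0.15 and 0.15, and Gls2 was 0.084, 0.087, 0.14, 0.38, 0.090 and 0.094. Glul minus the cycle was 0.13 and 0.12 by length and 0.19 against the mean. Periportal minus pericentral markers went from -0.06 to 0.015 by like length, -0.0016 by classes and 0.039 as means. Otc minus Cps1 was -0.54 and -0.52, and Ass1 minus Otc 0.85 and 0.85, by like length and classes. Members at least 25% higher or 20% lower, 2 by column totals, were 1 by the median, 1 by the trimmed mean and 5 by Ppib and Tbp. Nags was -0.069, -0.065, -0.014, -0.032 and -0.028 under all but Ppib and Tbp and the pseudocount, and Arg1 was 0.010 by Ppib and Tbp. The cause of the dependence on length was not tested. No paired analysis was possible because gene counts exist only as group sums, and for the same reason no library could be left out. Of the 8 enzymes, Nags alone had a counting interval that spans 0 relative to like length (-0.09 to 0.02). The spread between animals and libraries is unknown.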

Other observations

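By the annotation deposited with the counts, 17 genes carried the term glutamine metabolic process. Their median log2 ratio was 0.25, with 8 at least 25% higher and 1 at least 20% lower, beside 24.4% and 8.89% of all genes. Relative to genes of like length it was 0.03, with 4 higher and 3 lower by these limits, beside 5.91% and 13.5%. The highest were Phgdh, the first enzyme of serine synthesis, with 271 and 586 counts (log2 1.09, and 0.99 relative to like length), and Asns (0.96). The lowest were Nit2, an omega-amidase, with 14772 and 11472 counts (-0.39), and Asnsd1, a protein with an asparagine synthetase domain, with 5018 and 4135 counts (-0.30). The term urea cycle was carried by 9 genes, with a median of 0.09, 3 at least 25% higher and 0 at least 20% lower. Relative to genes of like length the median was -0.03, with 1 higher and 2 lower. The shares of all genes are those given above. Cad, which starts pyrimidine synthesis with its own carbamoyl phosphate synthetase, had the highest ratio by column totals, with 1314 and 1853 counts (0.47, and 0.16 relative to like length). The reference genes used in one of the scalings had ratios of opposite sign. Ppib, a peptidyl-prolyl isomerase of the endoplasmic reticulum, had 31948 and 21599 counts (-0.59), and Tbp, the TATA-binding protein, 1094 and 1379 (0.31).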
